A study of Homo sapiens with 24 samples.

Results

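FGFBP1, PRSS23, ARID5B, HCFC1R1, ERAP2 and ZNF117 are genes whose RNA was lower after wild-type MLK4 was induced in HCT15 colorectal cancer cells. They were chosen by that fall in the log2 values of the HCT15 wild-type arrays, so their values in that induction describe the choice and test nothing. They make up 6 of the 19775 genes measured, and all of their probe sets with a single gene symbol were followed, 21 of 41097. FGFBP1 has 1 such probe set, PRSS23 has 4, ARID5B has 5, HCFC1R1 has 2, ERAP2 has 5 and ZNF117 has 4.

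RNA was measured on 24 Affymetrix U133 Plus arrays of the lines HCT15 and HT115, both labelled as carrying loss-of-function mutations of MLK4, a kinase now named MAP3K21. The study asked what follows when a working MLK4 is put back. Each line came as 2 derivatives with an MLK4 form inducible by tetracycline. The forms were wild type (WT) in both lines and, as controls, the mutants Y330H (HCT15) and E314K (HT115). Each derivative had 3 arrays tagged Tet, from cells given tetracycline for 24 h, and 3 arrays without that tag, called untagged here because the labels do not say what those cells received. This makes 8 groups of 3 arrays. The sources used here do not say which promoter drives the induced gene, whether a derivative is 1 clone, or whether replicates were separate cultures. The p-values therefore measure the spread between these arrays, which may be technical. In RNA from whole cultures, fewer cells of a kind and less RNA per cell cannot be told apart.

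Mixed-lineage kinases such as MLK4 activate MAP kinase kinases, which in turn activate the JNK kinases, and these phosphorylate JUN. The 6 genes belong to no single pathway. FGFBP1 and PRSS23 encode secreted proteins, ARID5B, HCFC1R1 and ZNF117 encode proteins tied to transcription, and ERAP2 encodes an enzyme of antigen processing.

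All values are log2 signals per probe set, as deposited, and group values are means ± SD over n = 3 arrays. Array medians of the HT115 WT arrays were 5.55 to 5.61 and those of the other 18 arrays 6.38 to 6.48, so levels of HT115 WT arrays were compared only with each other. The only MAP3K21 probe set with a single symbol read 10.78 ± 0.13 in untagged and 10.62 ± 0.23 in Tet HCT15 WT arrays. In HCT15 Y330H it read 10.65 ± 0.21 and 10.73 ± 0.15. No source used here says whether this probe set lies in the induced sequence, so it does not check the labels. On those 18 arrays the epithelial markers EPCAM and KRT18 read 12.5 to 12.8 and 13.1 to 13.6, but KRT20 went down to 3.95 and GPA33 to 4.61. Of the leukocyte markers PTPRC read 4.31 to 4.90 and CD14 4.98 to 8.49, and of the fibroblast markers LUM read 3.51 to 4.13 and COL1A1 6.68 to 7.67. Deposited values carry no detection call, so low readings cannot be called absent. The ACTB 3' minus 5' difference, a sign of RNA integrity, was 0.93 and 1.17 on the HCT15 WT arrays numbered 1 and 0.298 to 0.646 on the other 22 arrays. The same difference for GAPDH did not set them apart as clearly. It was -0.142 and -0.059 on these arrays and -0.262 to 0.115 on the other 22, with all values above -0.059 on HT115 WT arrays.

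The 6 genes lie on 6 chromosomes. In the RefSeq annotation of GRCh38.p14, FGFBP1 lies at chr4:15935577-15938740, PRSS23 at chr11:86791071-86952910 and ARID5B at chr10:61901699-62096944. HCFC1R1 lies at chr16:3022620-3024286, ERAP2 at chr5:96875984-96919716 and ZNF117 at chr7:64971772-64991036. Promoter windows from RefSeq, 250 bases before to 50 bases after the annotated start, were found for all 6 genes and for 15384 measured genes in all. Where RefSeq lists several windows for a gene, the one listed first was used. For PRSS23 that window belongs to a transcript start at 86800542, inside the gene span, and for the other 5 genes to the outer start of the span. The 3 windows shown are those of FGFBP1, the gene with the largest fall, and of PRSS23 and HCFC1R1, the ones that hold a GC box. They are written 5' to 3' along the gene, and capitals mark GGGCGG or its reverse complement.
FGFBP1, chr4:15938691-15938990, minus strand: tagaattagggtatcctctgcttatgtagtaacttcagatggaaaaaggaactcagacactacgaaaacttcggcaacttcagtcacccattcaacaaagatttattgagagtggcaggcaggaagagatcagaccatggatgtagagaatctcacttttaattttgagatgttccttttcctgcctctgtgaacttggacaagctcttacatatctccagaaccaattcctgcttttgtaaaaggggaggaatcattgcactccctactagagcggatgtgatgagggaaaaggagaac
PRSS23, chr11:86800292-86800591, plus strand: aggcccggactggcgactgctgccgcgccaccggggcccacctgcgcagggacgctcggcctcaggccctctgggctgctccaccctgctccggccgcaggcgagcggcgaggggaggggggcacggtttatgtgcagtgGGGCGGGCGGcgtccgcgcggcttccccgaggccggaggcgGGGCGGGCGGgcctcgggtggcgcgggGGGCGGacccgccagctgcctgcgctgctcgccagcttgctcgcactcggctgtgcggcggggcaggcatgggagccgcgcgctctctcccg
HCFC1R1, chr16:3024237-3024536, minus strand: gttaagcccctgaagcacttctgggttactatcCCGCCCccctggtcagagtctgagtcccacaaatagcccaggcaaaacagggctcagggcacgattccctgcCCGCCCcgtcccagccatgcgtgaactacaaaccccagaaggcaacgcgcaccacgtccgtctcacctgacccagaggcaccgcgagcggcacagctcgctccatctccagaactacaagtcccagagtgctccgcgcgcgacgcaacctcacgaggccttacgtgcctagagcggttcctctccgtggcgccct

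These windows differed in composition. The PRSS23 window was 79.3% G and C with 40 CG dinucleotides, and HCFC1R1 had 63.0% and 23. FGFBP1 had 42.0% and 3, ARID5B 43.0% and 11, ERAP2 47.7% and 1, and ZNF117 42.3% and 2. The median over the 15384 windows was 63.0% and 22. The GC box GGGCGG, searched on both strands, was found in PRSS23 at 5 positions that partly overlap (-110, -106, -69, -65 and -42 from the start). In HCFC1R1 it was found on the reverse strand at -217 and -145. It occurred in 58.9% of all windows. The TATA box TATAAA was found in ARID5B, on the reverse strand at -113, and in 8.76% of all windows. None of the 6 windows held the AP-1 motif TGANTCA, which JUN and FOS proteins bind and which 5.84% of windows held. Nor did any hold the CRE TGACGTCA (2.67% of windows), the E-box CACGTG (8.90%) or the STAT motif TTCNNNGAA (6.95%). A second window is listed for PRSS23, ARID5B, HCFC1R1 and ERAP2. That of PRSS23, at the outer start 86791071, was 49.0% G and C and held none of these motifs. In the second windows HCFC1R1 had 1 GC box and ARID5B 1 STAT motif and no TATA box. These counts say only which letters stand in these windows.

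In HCT15 with wild-type MLK4 all 6 genes read lower on every Tet array than on any untagged array. A gene was called where limma gave an adjusted p under 0.05 (Benjamini-Hochberg, all genes). All 6 were called lower, as were 0.0860% of all genes. Non-overlapping lower groups occurred in 7.46% of genes. Both counts follow from the choice of the genes, and nothing is read from them. The median change of the 6 genes was -0.9998, and that of all genes was -0.03.

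FGFBP1, a secreted carrier that binds fibroblast growth factors and frees them from the matrix, had the largest fall. Its level on untagged arrays 1, 2 and 3 was 9.32, 9.23 and 9.97, and on Tet arrays 1, 2 and 3 it was 6.74, 6.62 and 8.99. The highest Tet array, number 3, lay just under the lowest untagged array. Means were 9.51 ± 0.40 and 7.45 ± 1.34, and the signal with Tet was 0.24 of the untagged signal. The log2 change was -2.06 (SE 0.39).

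PRSS23, a secreted protease of the trypsin fold, read 10.89, 11.23 and 11.34 on the untagged arrays. With Tet it read 9.46, 9.63 and 10.74. Its change was -1.21 (SE 0.27), from 11.15 ± 0.24 to 9.94 ± 0.69. Its other 3 probe sets changed by -1.03, -1.35 and -1.24.

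Among the genes tied to transcription, ARID5B binds AT-rich DNA and is a partner of the histone demethylase PHF2. It read 9.96, 10.24 and 9.67 on untagged and 8.56, 9.03 and 9.25 on Tet arrays, a change of -1.01 (SE 0.23). Its other 4 probe sets changed by -0.97, -0.76, -0.71 and -0.52. HCFC1R1, which binds the transcriptional coregulator HCF-1 and affects its place in the cell, read 9.63, 9.99 and 9.91, and with Tet 8.50, 8.84 and 9.21. Its change was -0.99 (SE 0.21), and its other probe set changed by -0.80. ZNF117, a zinc finger protein, read 8.20, 7.57 and 7.58 untagged and 6.91, 6.73 and 7.18 with Tet. Its change was -0.85 (SE 0.18), the smallest of the 6, and its other 3 probe sets changed by -0.72, -0.55 and -0.46. The ZNF117 probe set used and one other are of the type that Affymetrix marks as open to cross-hybridisation, and related zinc finger genes may add to them.

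ERAP2, an aminopeptidase of the endoplasmic reticulum that trims peptides for MHC class I, had close untagged arrays at 8.24, 8.15 and 8.16. With Tet it read 7.14, 6.69 and 7.77, a change of -0.98 (SE 0.19). Of its other 4 probe sets, 3 changed by -0.99, -1.15 and -1.02. The fourth was dim, with a mean change of 0.22 and overlapping groups, and was the only one of the 21 with a mean above 0.

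The fall was uneven between replicate pairs. For FGFBP1 the Tet minus untagged difference was -2.58 in pair 1, -2.62 in pair 2 and -0.98 in pair 3. The same pairs gave -1.43, -1.60 and -0.61 for PRSS23. ARID5B had -1.40, -1.21 and -0.42, HCFC1R1 had -1.12, -1.16 and -0.69, ERAP2 had -1.10, -1.46 and -0.39, and ZNF117 had -1.30, -0.84 and -0.40. Pair 3 held the smallest difference in all 6 genes and in all 21 probe sets. Median differences over the 6 genes were -1.35, -1.33 and -0.51. Pair 3 also moved less for other genes. The 121 genes called higher had median differences of 1.00, 0.99 and 0.67, and 92 of them had their smallest difference in pair 3. The other 11 genes called lower had -0.78, -0.86 and -0.38, with 9 of 11 smallest in pair 3.

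How many of the 6 genes were called depended on single arrays, while all 6 changes stayed below 0. Without both arrays numbered 3 all 6 genes were called, from -1.07 for ZNF117 to -2.60 for FGFBP1. Without both arrays numbered 1, which had the high ACTB difference, changes ran from -0.62 for ZNF117 to -1.80 for FGFBP1 and 0 of 6 were called. What the ACTB difference contributes was not tested. Leaving out Tet array 1 or Tet array 2 alone also left 0 called, leaving out untagged array 3 left 1, and untagged array 2 left 2. A fit to the 6 HCT15 WT arrays alone called 0. With the replicate block, all 6 were called.

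Across probe sets, 18 of 21 were lower in all 3 pairs, as were 18.5% of all probe sets, and 20 had a mean change below 0. The fit over all probe sets called 7 of 21 lower (0.0730% of all probe sets), with at least 1 for each gene. Groups did not overlap for 16 of 21 (6.63% of all probe sets). All these counts come from the arrays that chose the genes and are a description.

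Around the choice, 17 genes in all were called lower in HCT15 WT, and the 6 genes were not the 6 largest falls. PIR had -1.30, SEMA3A -1.25 and TLR3 -1.23, which is more than 5 of the 6. SEMA3A was the only one of the 17 whose groups overlapped. TM7SF2 (-0.94), SP5 (-0.72), BMP4 (-0.68), SUOX (-0.63), HEXIM1 (-0.59), CFAP95-DT (-0.59), IDI1 (-0.56) and DELE1 (-0.45) made up the rest. Just inside the threshold stood ARID5B, with a limma adjusted p of 0.0477. Just outside stood RETREG1, with a change of -0.52 and a limma adjusted p of 0.0527.

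In HCT15 with the Y330H form, tetracycline left the same genes near their untagged level. These arrays took no part in the choice. Limma called 0 of 6, as it called 0% of all genes, and 0 of 6 had an unadjusted p under 0.05, against 614 of 19775 genes. FGFBP1 read 10.68, 10.40 and 11.14 untagged and 10.52, 10.61 and 11.07 with Tet, a change of -0.00 (95% interval -0.82 to 0.82). PRSS23 read 11.18, 11.54 and 11.91 untagged and 10.95, 11.47 and 11.86 with Tet, a change of -0.12 (-0.67 to 0.44). The untagged and Tet arrays of both genes overlapped.

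ARID5B read 9.93, 9.27 and 10.29 untagged and 9.97, 9.24 and 10.26 with Tet, a change of -0.01 (-0.49 to 0.48). HCFC1R1 read 10.10, 9.38 and 10.16, then 10.19, 9.60 and 10.05, a change of 0.07 (-0.36 to 0.50). For both genes the arrays numbered 2 were low with and without Tet, so the spread lay between replicate numbers. The intervals come from a fit without pairs and include that spread. ERAP2 went from 8.79 ± 0.21 to 8.72 ± 0.31, a change of -0.07 (-0.47 to 0.33). ZNF117 went from 7.56 ± 0.06 to 7.79 ± 0.34, a change of 0.23 (-0.14 to 0.61), with Tet array 3 alone high at 8.15. None of the 21 probe sets was called (0% of all probe sets), and 9 of them had a mean change below 0. The other 4 probe sets of ARID5B were higher with Tet in all 3 pairs, by 0.18, 0.12, 0.13 and 0.45 on average, as were 11.9% of all probe sets. The last of these had non-overlapping higher groups (1.97% of all probe sets) and an unadjusted limma p of 0.0211. The only other of the 21 with non-overlapping higher groups was 1 of ZNF117, at 7.02 to 7.17 untagged and 7.19 to 7.37 with Tet.

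Set side by side, the WT minus Y330H difference in HCT15 was -2.05 (SE 0.56) for FGFBP1, -1.10 (0.38) for PRSS23 and -1.004 (0.33) for ARID5B. It was -1.06 (0.29) for HCFC1R1, -0.92 (0.27) for ERAP2 and -1.08 (0.26) for ZNF117. This difference contains the contrast that chose the genes and is a description. Limma called 0 of 6, and 0.0607% of all genes, all of them higher. With the replicate block it called 3, namely FGFBP1, ARID5B and HCFC1R1. Leaving out WT Tet array 3 also gave 3.

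In HT115 with wild-type MLK4 none of the 6 genes was called, against 0.147% of all genes. At an unadjusted p under 0.05 the count was also 0 of 6, against 1537 of 19775 genes. FGFBP1 read 8.34, 8.60 and 8.46 untagged and 8.05, 8.46 and 8.54 with Tet, a change of -0.11 (-0.93 to 0.71). ERAP2 changed by -0.04 (-0.44 to 0.36), HCFC1R1 by 0.04 (-0.39 to 0.47) and ZNF117 by 0.04 (-0.33 to 0.42). All 4 had overlapping groups. The median over the 6 genes was -0.00, beside -0.02 over all genes.

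PRSS23 and ARID5B were the 2 whose HT115 WT groups did not overlap, in opposite directions. PRSS23 read 9.20, 9.20 and 9.08 untagged and 9.74, 9.52 and 9.51 with Tet, so it was higher with Tet. Its change was 0.43 (SE 0.27, interval -0.12 to 0.99, limma adjusted p 0.802). Differences by replicate number were 0.54, 0.32 and 0.43, and 14.2% of all genes were higher in all 3. Its other 3 probe sets also had non-overlapping groups, higher with Tet, at 0.56, 0.67 and 0.60, with limma adjusted p from 0.789 to 0.851 over the 4 probe sets. Non-overlapping higher groups occurred in 6.66% of genes and 7.22% of probe sets. The 4 probe sets measure 1 gene on the same arrays and are not separate evidence.

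ARID5B read 9.47, 9.50 and 9.44 untagged and 9.26, 9.43 and 9.06 with Tet. Its change was -0.22 (-0.71 to 0.27, limma adjusted p 0.986). Non-overlapping lower groups occurred in 7.76% of genes. Of its other 4 probe sets, 1 had non-overlapping lower groups (6.88% of all probe sets) and 2 had a mean change above 0.

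In HT115 with the E314K form limma called 0 of 6, and 0% of all genes. The count at an unadjusted p under 0.05 was 0 of 6, against 313 of 19775 genes. FGFBP1 read 9.29, 9.45 and 9.84 untagged and 9.44, 9.51 and 9.67 with Tet, a change of 0.02 (-0.80 to 0.84). PRSS23 read 9.06, 8.64 and 8.78, then 8.93, 8.99 and 8.43, a change of -0.04 (-0.60 to 0.51). Unlike in the WT derivative, the PRSS23 differences by replicate number went both ways, at -0.13, 0.34 and -0.35.

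ARID5B had the tightest arrays, at 10.45 ± 0.03 untagged and 10.41 ± 0.05 with Tet, a change of -0.04 (-0.53 to 0.45). HCFC1R1 changed by 0.04 (-0.39 to 0.47), ERAP2 by -0.02 (-0.42 to 0.38) and ZNF117 by -0.06 (-0.44 to 0.31). All 6 genes had overlapping groups.

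The HT115 WT minus E314K difference was tested on arrays outside the choice. Limma called 0 of 6, against 0.0152% of all genes, and 0 of 6 had an unadjusted p under 0.05, against 564 of 19775. PRSS23 had the largest difference, 0.48 (SE 0.38). ARID5B had -0.18 (0.33), FGFBP1 -0.13 (0.56), ZNF117 0.11 (0.26), ERAP2 -0.02 (0.27) and HCFC1R1 -0.00 (0.29).

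Among untagged arrays the levels of some of the 6 genes differed between HCT15 Y330H and HT115 E314K. Line and derivative cannot be told apart in this comparison. Untagged HCT15 Y330H and HT115 E314K arrays share a scale and took no part in the choice, although a gene had to be measurable in HCT15 to be chosen. Limma called 3 of 6 different between them, against 31.9% of all genes. The calls were 2 higher in HCT15 Y330H and 1 lower, and those over all genes 17.4% and 14.5%. PRSS23 was 11.54 ± 0.36 in HCT15 Y330H and 8.83 ± 0.22 in HT115 E314K, a difference of 2.72 (SE 0.27, limma adjusted p 4.33e-08). All 4 of its probe sets were called higher in HCT15 Y330H, by 2.14 to 3.79, as were 15.7% of all probe sets. FGFBP1 was higher in HCT15 Y330H by 1.21 (SE 0.39, limma adjusted p 0.0212), at 10.74 ± 0.37 and 9.52 ± 0.29. Untagged HCT15 WT arrays read 11.15 ± 0.24 for PRSS23, near Y330H, but 9.51 ± 0.40 for FGFBP1, near HT115 E314K.

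ARID5B was lower in HCT15 Y330H, with a difference of -0.62 (SE 0.23, limma adjusted p 0.0496), at 9.83 ± 0.52 and 10.45 ± 0.03. Its groups did not overlap in any of its 5 probe sets (18.0% of all probe sets), and 3 of these were called lower (14.8%). The ARID5B call was lost when any 1 of these 6 arrays other than HCT15 Y330H array 3 was left out, and with the replicate block (limma adjusted p 0.0552), arrayWeights (0.104) or only the arrays of the comparison (0.0858). Without HCT15 Y330H array 2 its difference was -0.34. The FGFBP1 call was lost without HCT15 Y330H array 3 (0.0982), HT115 E314K array 1 (0.0753) or HT115 E314K array 2 (0.0593), while PRSS23 was called in every alternative run. HCFC1R1 differed by 0.39 (limma adjusted p 0.174), ERAP2 by 0.23 (0.430) and ZNF117 by 0.27 (0.289).

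Over the 6 groups that share a scale, FGFBP1 had its highest mean in both HCT15 Y330H groups and its lowest in HCT15 WT with Tet. The HT115 E314K groups and untagged HCT15 WT lay between, from 9.51 to 9.54, and did not differ beyond their spread. ARID5B, HCFC1R1, ERAP2 and ZNF117 also had their lowest mean in HCT15 WT with Tet. PRSS23 was the exception. Its HCT15 WT Tet mean of 9.94 lay above both HT115 E314K groups, at 8.83 and 8.78.

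On untagged arrays the difference between the 2 HCT15 derivatives did not pass the test for any of the 6 genes. Untagged HCT15 WT minus untagged Y330H was -1.23 for FGFBP1, -0.60 for ERAP2 and -0.39 for PRSS23. It was 0.13 for ARID5B, -0.04 for HCFC1R1 and 0.23 for ZNF117. FGFBP1 and ERAP2 had non-overlapping groups, lower in WT, as had 7.96% of genes. These untagged WT arrays also entered the choice, so the values are a description. Limma called 0 of 6 here, against 5.97% of all genes. At an unadjusted p under 0.05 the count was 2 of 6, against 18.5% of all genes. The replicate block, arrayWeights and the fit to the brighter genes each called 2.

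Over all 24 arrays, each gene centred on its mean in each of the 4 derivatives, the 6 genes correlated with one another at r of 0.603 to 0.903 (median 0.712, 15 pairs). Without the 6 HCT15 WT arrays, whose values chose the genes, the range over 18 arrays was -0.22 to 0.67, with a median of 0.388 and 14 of 15 above 0. All points share the arrays and their normalization. The genes most like each of the 6 were ranked over all 24 arrays, the HCT15 WT arrays included, so the ranking leans on the arrays that chose the genes. FGFBP1 was most like ODAM (r = 0.936, and 0.816 without the HCT15 WT arrays), RBM47 (0.918 and 0.606) and ERAP2 (0.903 and 0.612). For PRSS23 they were SP5 (0.905 and 0.790), ABCB1 (0.865 and 0.725) and ANK3 (0.855 and 0.660). For ARID5B they were TMT1A (0.886 and 0.797), CDH7 (0.882 and 0.820) and ZBED5-AS1 (0.873 and 0.782).

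HCFC1R1 had TM7SF2 (0.910 and 0.762), CDH7 (0.901 and 0.785) and TJP3 (0.883 and 0.733). ERAP2 had FGFBP1 (0.903 and 0.612), RBM47 (0.900 and 0.724) and METTL25 (0.883 and 0.513). ZNF117 had PIR (0.872 and 0.498), HEXIM1 (0.786 and 0.448) and HSD17B4 (0.774 and 0.174). All 18 values were lower over the 18 arrays than over the 24.

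Genes next to the 6 on their chromosomes mostly did not pass the test. Of 24 measured neighbours, the nearest 2 on each side, 1 was called in HCT15 WT, against 0.698% of all genes. Their median change was -0.10, beside -0.03 over all genes. The called one was TNFRSF12A, the receptor of the cytokine TWEAK, 237 bases from HCFC1R1. It rose by 0.99 (limma adjusted p 0.0174) where HCFC1R1 fell. THOC6, which overlaps HCFC1R1 on the opposite strand, had -0.42 (limma adjusted p 0.246). ERAP1, the sister enzyme that overlaps ERAP2 on the opposite strand, had 0.45 (limma adjusted p 0.230). PROM1, near FGFBP1, had -0.56 (limma adjusted p 0.0696). ERV3-1, which overlaps ZNF117 on the same strand, had -0.24 (limma adjusted p 0.904). In the other 3 inductions 0 of 24 neighbours were called.

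Gene lists were drawn up around each of the 6 genes. In HCT15 WT, 4 of the 103 other measured genes on 6 lists were called, all higher, against 0.698% of all genes in either direction. At an unadjusted p under 0.05 the count was 19 of 103, against 9.36% of all genes. In the other 3 inductions limma called 0 of 103, and 1, 5 and 0 had an unadjusted p under 0.05 in HCT15 Y330H, HT115 WT and HT115 E314K. The shares over all genes there were 3.1%, 7.77% and 1.58%.

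Among 22 other genes of the FGF system, SDC4, a heparan sulfate proteoglycan that acts as a coreceptor of fibroblast growth factors, rose by 1.16 (limma adjusted p 0.00157). No other was called, and the list's median was -0.08 beside -0.03 for all genes. Of 25 other trypsin-like proteases and their regulators 2 rose. PRSS3 rose by 1.39 (limma adjusted p 0.0138) and PRSS2 by 0.97 (limma adjusted p 0.0355). These trypsinogens are near-identical copies, so their probe sets may read one another, and they moved opposite to PRSS23. Of 12 other ARID family genes and partners, ARID5A, the closest relative of ARID5B, rose by 0.68 (limma adjusted p 0.0188). In HT115 WT it had 0.34 (limma adjusted p 0.534).

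Of 16 other genes on the list of HCF-1 and its partners, 0 were called, and ASH2L had -0.32 (limma adjusted p 0.347). Of 20 other antigen processing genes 0 were called, while 7 had an unadjusted p under 0.05, against 9.36% of all genes. The median of the 20 was -0.06, beside -0.03 for all genes, and their changes ran from -0.77 to 0.45. The immunoproteasome subunit PSMB9 had -0.77 (limma adjusted p 0.121) and the chaperone CALR -0.34 (limma adjusted p 0.133). Of 8 other genes on the list around ZNF117, which holds zinc finger genes and ERV3-1, 0 were called. Their median was -0.21, with ZNF680 at -0.41 (limma adjusted p 0.195) and ZNF107 at -0.34 (limma adjusted p 0.229).

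Markers of other cell types did not pass the test beside these falls. In HCT15 WT limma called 0 of 8 fibroblast, 0 of 6 leukocyte and 0 of 6 endothelial markers, and 0 of each had an unadjusted p under 0.05. Their log2 sums on untagged and Tet arrays were 41.4 to 44.0 and 40.6 to 42.0 for fibroblast, 30.9 to 32.6 and 31.3 to 32.4 for leukocyte, and 31.9 to 33.8 and 32.2 to 33.0 for endothelial markers. Of 14 colon epithelial markers 2 were called, against 0.698% of all genes, and 4 had an unadjusted p under 0.05, against 9.36%. KRT20, a keratin of differentiated colon epithelium, rose by 1.497 (limma adjusted p 0.00574), and KRT19 rose by 0.70 (limma adjusted p 0.00281). The KRT20 rise was between low means, 4.29 untagged and 5.79 with Tet, beside 9.49 in untagged HT115 E314K. The lowest values of that list were -0.72 for VIL1 (limma adjusted p 0.810) and -0.47 for CDX2 (limma adjusted p 0.388). The epithelial log2 sums were 131.6 to 138.1 untagged and 135.6 to 137.7 with Tet. Their part in the falls of the 6 genes was not tested.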

How the data were processed

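The authors deposited RMA signals on the log2 scale, 1 per probe set and array. The submitters' processing notes name RMA and Affymetrix Power Tools, without versions. The 41097 probe sets with 1 gene symbol in the platform annotation were kept of 54675, and each gene was read from its brightest probe set over all 24 arrays (19775 genes), with no filter on dim ones. Changes were fitted with limma 3.58.1 in R 4.3.3 (8 group means, 24 arrays, 16 residual and 4.83 prior degrees of freedom) and adjusted by Benjamini-Hochberg over all genes, or over all probe sets in a second fit. The scripts were tested on simulated data. The number of arrays limits the precision.

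Deviations of Tet and untagged arrays of the same number correlated in HCT15 WT (r of 0.581, 0.488 and 0.416) and HCT15 Y330H (0.767, 0.618 and 0.310). In HT115 r was uneven, at 0.226, 0.188 and -0.0045 in WT and 0.594, 0.051 and 0.317 in E314K. Differences by repeat number were therefore read as pairs in HCT15 but not in HT115. The main fit held no term for pairs in either line, so its errors, intervals, p-values and calls are unpaired. Only the alternative with the replicate block held such a term.

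The genes and gene lists were chosen with earlier results of these data known. Named genes were the 6 genes, MAP3K21, the other called falls, the 3 genes most correlated with each, the nearest 2 measured neighbours on each side, and per list up to 3 called genes or else the 2 with the smallest p. EPCAM, KRT18, GPA33, VIL1, CDX2, PTPRC, CD14, LUM and COL1A1 were named after their values were seen. Protein sequences were not used here.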

Additional observations from a re-analysis of the deposited data

Results flagged for a closer look

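PRSS23 read higher with tetracycline in HT115 WT and lower in HCT15 WT, for each of the 3 replicate numbers. The HT115 change was 0.43 (SE 0.27) and did not pass the test (limma adjusted p 0.802), and 14.2% of all genes were higher for all 3 numbers there. Repeat numbers were not taken as pairs in HT115. The HCT15 change of -1.21 is the one by which PRSS23 was chosen, so the difference between the lines was not tested. Over the 14 alternatives run, the HT115 change stayed above 0 and was not called.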

How the results depend on the processing

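The 0 calls among the 6 genes in the HCT15 Y330H, HT115 WT and HT115 E314K inductions held in all 14 alternatives of each, and in all 20 for HT115 WT minus E314K. No change of a called gene reversed. The 6 calls in HCT15 WT fell to 0 when only its own arrays were fitted and ran from 0 to 6 when 1 array was left out. They fell to 0 without both arrays numbered 1, an alternative chosen after seeing the data. With the replicate block they stayed at 6. HCT15 WT minus Y330H had 0 calls, 3 with the replicate block, 0 to 3 with 1 array left out and 1 without both WT arrays numbered 3. Untagged HCT15 WT minus Y330H had 0 calls, 2 with the replicate block (number shared by all groups, since no pairs lie within it), 1 after quantile normalization, 2 in the brighter genes, 2 with arrayWeights, 0 to 1 with 1 array left out and 2 without both WT arrays numbered 3. The 3 calls between untagged HCT15 Y330H and HT115 E314K ran from 1 to 3 with 1 array left out, and the replicate block left 2. The block changed no other count of calls among the 6 genes.

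Counts over all genes moved more. The HCT15 WT induction had 138 called genes and from 6 to 1438 over the alternatives. HT115 WT had 29 and from 7 to 186, HCT15 WT minus Y330H 12 and from 1 to 189, HT115 WT minus E314K 3 and from 0 to 31, untagged HCT15 WT minus Y330H 1181 and from 170 to 3728, and HT115 E314K 0 and up to 1. The causes were not tested.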
